A study of Danio rerio with 23 samples.

Results

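The cytochrome P450 genes described here were those of families 2, 3 and 4, taken as every gene whose symbol in the probe annotation of the array began with cyp, then 2, 3 or 4, then a letter. There were 48 such genes among the 20908 genes that had at least 1 probe set to themselves, 39 of them in family 2, 5 in family 3 and 4 in family 4. Each gene was read from its brightest probe set, the one with the highest mean over the 23 arrays, as a log2 signal.

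The arrays measured RNA from livers of zebrafish irradiated with or without earlier Oligo-Fucoidan (OF), a seaweed polysaccharide preparation, and the study asked what the pretreatment does to irradiated liver. Batch 1 held fish that received 40 Gy and batch 2 held fish that received 10 Gy, so batch and dose cannot be told apart and groups were compared only within a batch. The paper names gamma radiation in its design and X-rays in its irradiation method. In batch 1 there were 2 arrays of wild type (WT) after 40 Gy, 2 of WT after OF and 40 Gy, 3 of HBx,src after 40 Gy and 4 of HBx,src after OF and 40 Gy. In batch 2 there were 2 arrays of WT after 10 Gy, 2 of WT after OF and 10 Gy, 3 of HBx,src,p53 after 10 Gy and 5 of HBx,src,p53 after OF and 10 Gy. HBx,src fish carry the hepatitis B virus X gene and src under the hepatocyte promoter of fabp10a, and HBx,src,p53 fish carry in addition 1 mutant copy of p53 (p53-/+). The transgenic fish were females made obese by overfeeding with Artemia, whereas WT fish had a normal diet and the labels give no sex for them, so strain, diet and possibly sex cannot be told apart in any comparison of strains. Sex may also differ between WT arrays with and without OF. OF was given by gavage at 300 mg/kg, gavage was continued after irradiation, and livers were taken at 6 months of age. All 8 groups were irradiated, so none shows the level of a P450 gene in untreated liver. The labels do not say whether arrays came from separate or pooled animals, and p-values here measure only the spread between arrays.

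Cytochrome P450 enzymes are haem proteins that insert an oxygen atom into lipids, steroids, vitamins and foreign chemicals, using electrons passed from NADPH by P450 reductase and cytochrome b5. In vertebrate liver most enzymes of families 1 to 3 sit in the endoplasmic reticulum of hepatocytes, where CYP3A enzymes in particular clear drugs and are switched on through the pregnane X receptor. CYP2J enzymes and their fish relatives make epoxides of arachidonic acid, and many CYP4 enzymes hydroxylate the far end of fatty acids. Fish carry expanded subfamilies that mammals lack, and here CYP2AA had 11 genes, CYP2K 8, CYP2P 5, CYP2X 5, CYP3C 4 and CYP2AD 3. RefSeq gives cyp2aa3v1 as a synonym of cyp2aa3, but both were kept as annotated on the array. Counts of CYP2AA genes and counts out of 48 may therefore hold that gene under both names. In the RefSeq annotation of the GRCz12tu assembly, which listed 46 of the 48 genes, 36 lay in 5 runs with at most 3 other protein-coding genes between neighbours. The longest run held 11 genes (cyp2ad2, cyp2ad3, cyp2ad6, cyp2j20, cyp2n13, the 5 cyp2p genes and cyp2v1), and the others held 10 (cyp2aa genes and cyp2ae1), 7 (cyp2k genes), 4 (cyp2x6 to cyp2x9) and 4 (the cyp3c genes). cyp2k22 lay apart from the 7 other cyp2k genes. Such close copies can share probes, so the split of signal between members of a run is uncertain. Coordinates are not given, because the genome build behind the array was not stated in the sources used here.

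Of the 48 genes, 26 were above the median probe set of every array, 2 (cyp2aa3 and cyp2aa8) were below it on every array and 20 were above it on some arrays. Hepatocyte defining transcripts were high on all arrays (fabp10a, the liver fatty acid binding protein, from 11.85 to 13.33). Arrays of 1 group correlated with each other at between 0.898 and 0.965 over all probe sets, and array medians were 2.02 to 2.21 in batch 1 and 2.46 to 2.58 in batch 2. vtg2, a yolk precursor made by liver under oestrogen, was between 13.54 and 13.93 on 15 arrays and between 2.42 and 6.51 on the other 8: all WT arrays except the pair after 10 Gy alone, and replicates 1 and 4 of HBx,src,p53 after OF and 10 Gy. The 2 WT arrays after 10 Gy alone also had high oocyte transcripts (dazl 8.26 and 7.71, against 1.50 to 3.12 on the other 21 arrays), and vtg2 was high on both. In WT at 10 Gy OF therefore cannot be told apart from the oocyte and vitellogenin signal, or from the sex of the fish. Marker lists whose means over the list did not overlap between the groups compared are given with each comparison. Between groups of 2 arrays values often lie apart by order alone, so lack of overlap says little there.

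**Figure D1:**
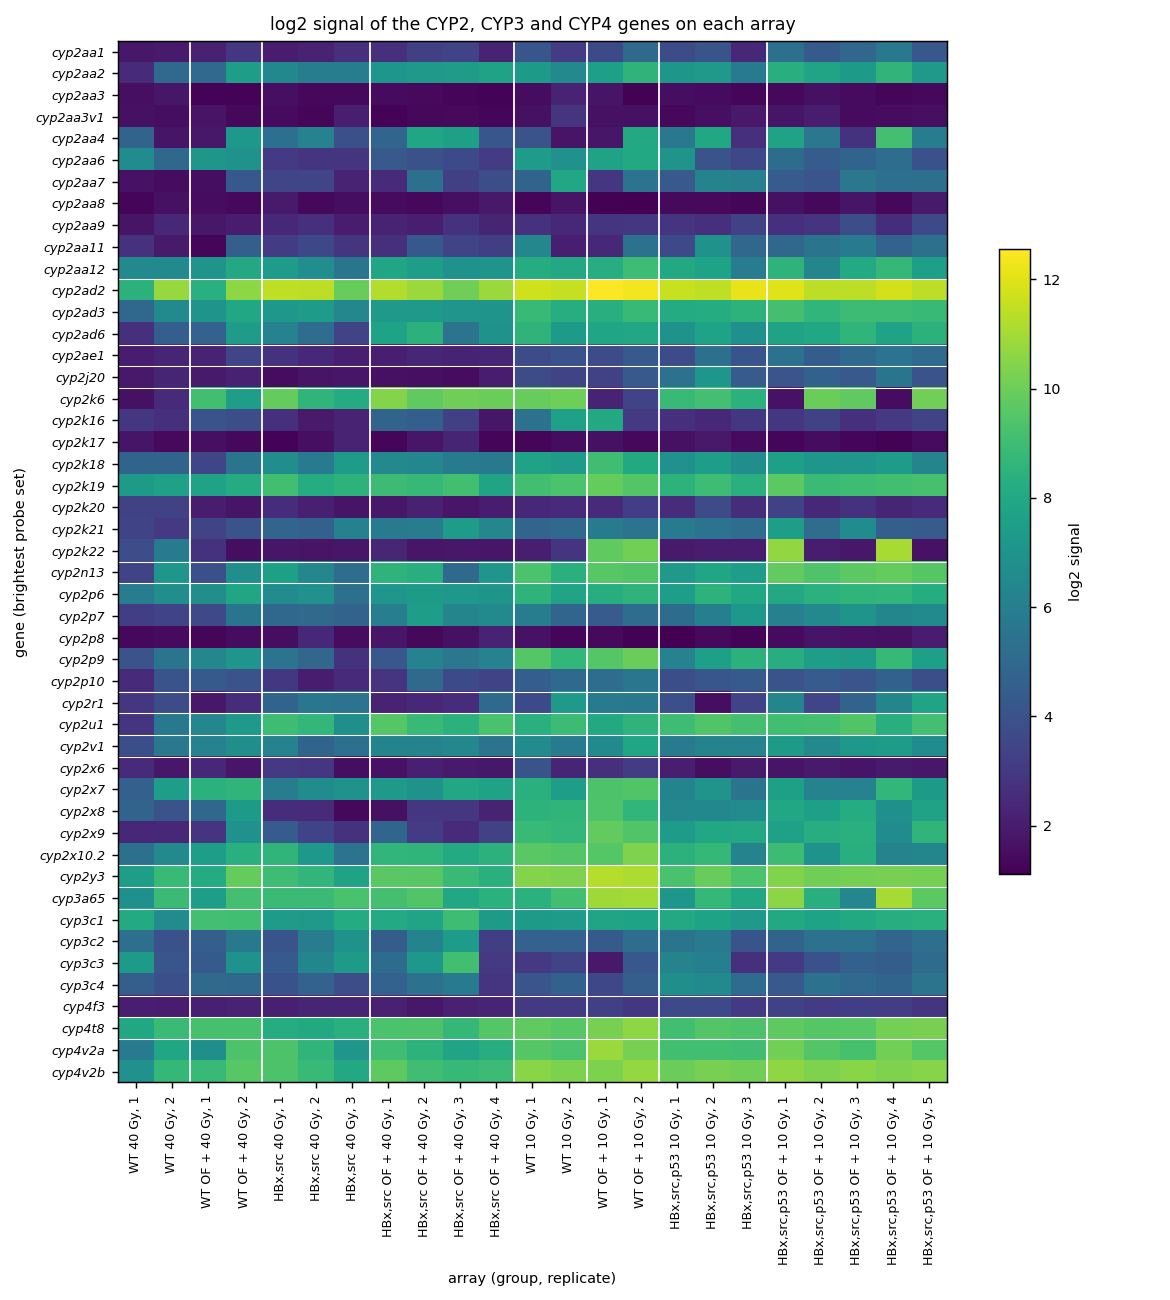
log2 signal (colour scale) of the brightest probe set of each of the 48 P450 genes (rows, by family and subfamily) on each of the 23 arrays (columns, by group and replicate). White lines part groups and subfamilies. cyp2k6 and cyp2k22 switch between dark (at most 5.81) and bright (7.52 or more) from array to array.

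A pair of CYP2K genes, cyp2k6 and cyp2k22, swung widely between arrays and were singled out after their values had been seen. CYP2K enzymes are best known from rainbow trout, where CYP2K1 hydroxylates lauric acid and activates aflatoxin. In batch 2, cyp2k6 was at 9.88 and 10.02 in WT after 10 Gy, 2.26 and 3.47 in WT after OF and 10 Gy, 8.85, 9.14 and 8.43 in HBx,src,p53 after 10 Gy, and 1.68, 9.97, 9.77, 1.49 and 10.13 (replicates 1 to 5) in HBx,src,p53 after OF and 10 Gy. On the same arrays cyp2k22 was at 2.08 and 2.85, 9.77 and 10.12, 1.94, 2.04 and 1.99, and 10.69, 2.05, 1.85, 11.05 and 1.66. Each array of batch 2 had a high value for 1 of the genes and a low value for the other. cyp2k22 was the high one on 4 arrays, both of WT after OF and 10 Gy and replicates 1 and 4 of HBx,src,p53 after OF and 10 Gy.

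In batch 1, cyp2k6 was at 1.63 and 2.47 in WT after 40 Gy, 9.08 and 7.52 in WT after OF and 40 Gy, 9.83, 8.59 and 8.16 in HBx,src after 40 Gy and 10.41, 9.78, 10.06 and 9.99 in HBx,src after OF and 40 Gy. The 2 WT arrays after 40 Gy alone were the only ones of the batch without high cyp2k6, and they had the highest cyp2k22 of the batch (3.80 and 5.81, against 1.56 to 2.79 on the other 9). Over both batches cyp2k6 was above 7 on 17 arrays (7.52 to 10.41) and at 1.49 to 3.47 on the other 6, cyp2k22 was above 7 on 4 arrays (9.77 to 11.05) and at most 5.81 elsewhere, and no array had both above 7. cyp2k19, another CYP2K gene, ran only from 7.36 to 9.87.

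The arrays with high cyp2k22 were also set apart by other genes. All 15 arrays with vtg2 above 13 had cyp2k6 at 8.16 or more and cyp2k22 at 2.85 or less, and the 4 arrays with high cyp2k22 had vtg2 between 3.18 and 6.51. The match was not complete, because WT after OF and 40 Gy had high cyp2k6 with vtg2 at 6.36 and 4.64. cyp3a65, the zebrafish CYP3A gene of liver and intestine, was at 8.42 and 9.07 in WT after 10 Gy, 10.93 and 10.98 in WT after OF and 10 Gy, 7.15, 8.73 and 7.97 in HBx,src,p53 after 10 Gy and 10.57, 8.31, 6.39, 11.04 and 9.68 in HBx,src,p53 after OF and 10 Gy. Its 4 highest arrays (10.57 to 11.04, against 6.39 to 9.68 on the other 19) were the same 4 that had high cyp2k22. In batch 1 cyp3a65 was at 6.84 and 8.92 in WT after 40 Gy, 7.50 and 9.13 in WT after OF and 40 Gy, 8.93, 8.92 and 9.28 in HBx,src after 40 Gy and 9.16, 9.46, 7.96 and 8.41 in HBx,src after OF and 40 Gy, and the groups compared overlapped in every case.

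**Figure D2:**
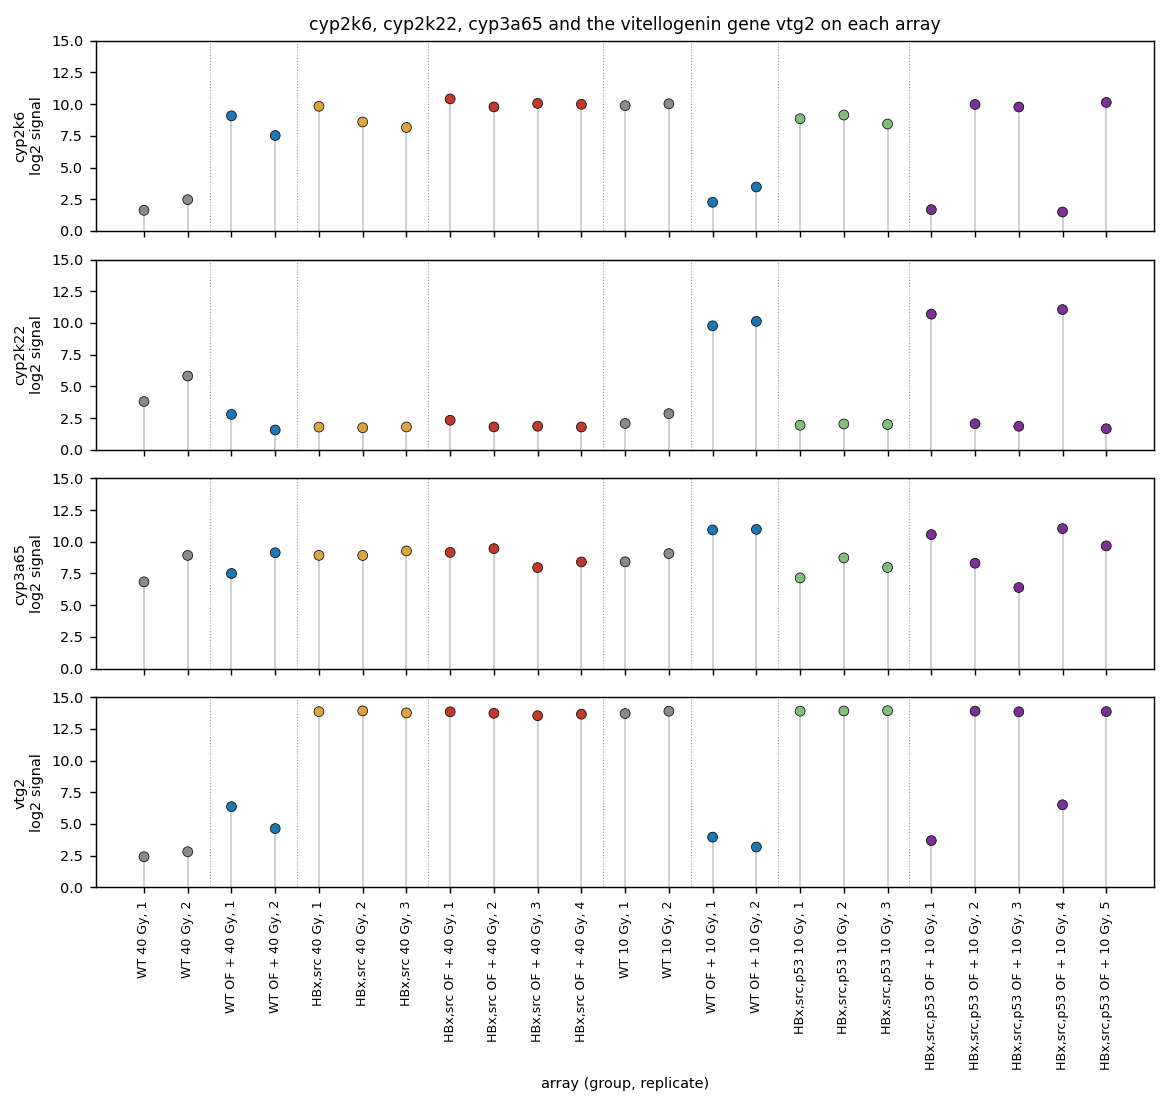
log2 signal of cyp2k6, cyp2k22, cyp3a65 and vtg2 on each array (x axis, group and replicate; dotted lines part groups; each point is 1 array). No array has cyp2k6 and cyp2k22 both above 7, and the 4 arrays with cyp2k22 between 9.77 and 11.05 have the 4 highest cyp3a65 values.

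None of these 3 genes passed the test, limma's moderated test with Benjamini-Hochberg adjustment over all probe sets (adjusted p below 0.05), in a comparison of groups. That fit takes 1 spread per gene from all 8 groups, and the arrays of HBx,src,p53 after OF and 10 Gy lay on both sides. With OF in WT at 10 Gy the log2 change of cyp2k6 was -7.09 (SE 2.26, adjusted p = 0.0884), that of cyp2k22 was 7.49 (SE 2.41, adjusted p = 0.0928) and that of cyp3a65 was 2.21 (SE 1.09, adjusted p = 0.336), with no overlap between the arrays for any of the 3. Fitted to those 4 arrays alone, cyp2k6 had a log2 change of -7.09 (adjusted p = 0.00986) and cyp2k22 of 7.49 (adjusted p = 0.00531). The pair had been singled out for its swings between these same arrays, so the p-values of that fit are no separate support. At 40 Gy the log2 change of cyp2k6 with OF in WT was 6.25 (SE 2.26, adjusted p = 0.149), opposite in sign to that at 10 Gy. Oocyte signal, vitellogenin and cyp2k6 moved together on the WT arrays at 10 Gy. There OF cannot be told apart from the oocyte and vitellogenin signal, whose part in these differences was not tested.

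Pretreatment with OF was compared with irradiation alone in each strain and batch. In WT at 40 Gy, 2 of the 48 genes rose, against 4.07% of all genes, and 1 fell, against 0.751% of all genes. The brightest CYP2 gene, cyp2ad2, was not among them, with 8.48 and 10.77 after 40 Gy and 8.37 and 10.60 after OF and 40 Gy, which overlapped. Its neighbour cyp2ad3 was at 4.92 and 6.60 after 40 Gy and 7.03 and 7.93 after OF and 40 Gy, so both OF arrays were above both others, and it rose by 1.72 (SE 0.42, adjusted p = 0.0365). cyp3c1, of a CYP3 subfamily found in fish, was at 8.10 and 6.61 and 9.13 and 9.07, again without overlap, and rose by 1.75 (SE 0.46, adjusted p = 0.0499). cyp2k20 was at 3.37 and 3.38 and 1.98 and 1.77 and fell, with a log2 change of -1.50 (SE 0.38, adjusted p = 0.0419). The OF arrays of cyp2k20 were below their array medians, and with those medians in place of the values the change was -1.32.

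These 3 calls rested on few arrays. Without WT 40 Gy replicate 1 the change of cyp2ad3 was 0.88 (adjusted p = 0.296), and without WT OF + 40 Gy replicate 2 it was 1.27 (adjusted p = 0.359). That of cyp3c1 was 1.00 (adjusted p = 0.304) without WT 40 Gy replicate 2, 1.72 (adjusted p = 0.129) without WT OF + 40 Gy replicate 1 and 1.77 (adjusted p = 0.251) without WT OF + 40 Gy replicate 2. cyp2k20 lost its call whichever of the 4 arrays was left out (adjusted p between 0.0825 and 0.279). WT 40 Gy replicate 1 stood low for these genes as a whole, being the lowest of the 11 arrays of its batch for 21 of the 48 genes and the highest for 0, against 16.6% and 12% of all genes. Without that array 1 gene was called (cyp3c1), and without WT OF + 40 Gy replicate 2 there were 0. Without WT 40 Gy replicate 2 there were 7 (cyp2aa2, cyp2ad3, cyp2u1, cyp2v1, cyp2x7, cyp4t8 and cyp4v2b), and without WT OF + 40 Gy replicate 1 there were 4 (cyp2aa2, cyp2ad3, cyp2x8 and cyp2x9). In the same comparison 3 of 9 neutrophil and macrophage markers and 2 of 10 biliary markers rose and 1 of 9 erythrocyte markers fell. The list means without and with OF were 2.92 on both arrays and 4.40 to 5.20 for neutrophils and macrophages, 5.03 to 5.39 and 5.89 to 6.14 for biliary epithelium, 3.76 to 3.96 and 2.94 to 3.51 for erythrocytes, 4.95 to 6.30 and 3.91 to 4.50 for exocrine pancreas, 2.95 to 3.03 and 2.52 to 2.84 for intestine and 3.77 to 3.91 and 5.36 to 5.60 for vitellogenin and female liver, none of which overlapped, and their part was not tested. With each array centred on its median all 3 calls in this comparison were of higher genes, as cyp2u1 entered (with cyp2ad3 and cyp3c1) and cyp2k20 dropped out.

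In HBx,src at 40 Gy, 1 gene rose with OF (2.11% of all genes rose) and 0 fell (0.225% of all genes fell). It was cyp4t8, a fish CYP4 gene, at 8.18, 8.06 and 8.40 after 40 Gy and 9.32, 9.35, 8.75 and 9.54 after OF and 40 Gy. Every OF array was above every other array, and the log2 change was 1.03 (SE 0.24, adjusted p = 0.0372). The call held only without HBx,src OF + 40 Gy replicate 3 among the 7 ways of leaving out 1 array, the adjusted p being 0.0621 to 0.128 in the other 6. Erythrocyte markers (list mean 3.04 to 3.24 without and 3.36 to 3.89 with OF) and neutrophil and macrophage markers (3.49 to 3.64 and 3.80 to 4.37) were higher with OF without overlap, although no gene of either list passed, and their part was not tested. cyp4t8 was also higher on every OF array in both WT comparisons, with 7.97 and 8.93 against 9.21 and 9.23 at 40 Gy and 9.77 and 9.59 against 10.19 and 10.61 at 10 Gy. Neither of those passed, with log2 changes of 0.77 (SE 0.31, adjusted p = 0.192) and 0.72 (SE 0.31, adjusted p = 0.238). In HBx,src,p53 its log2 change was 0.52 (SE 0.22, adjusted p = 0.264), also without overlap between groups (9.10, 9.48 and 9.38 after 10 Gy and 9.71, 9.54, 9.59, 10.15 and 10.21 after OF and 10 Gy).

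In WT at 10 Gy 0 P450 genes of these families passed in limma, while 2.63% of all genes rose and 6.56% fell. At an unadjusted p below 0.05 there were 3 (cyp2k6, cyp2k22 and cyp4t8). Counts at that threshold, here and below, stand without a share of all genes and so do not set these genes apart. In WT at 10 Gy 12 of 13 ovary markers and 7 of 8 vitellogenin and female liver genes fell and 9 of 9 erythrocyte markers rose. List means without and with OF were also apart for exocrine pancreas (7.16 to 7.49 and 4.65 to 5.86), intestine (3.35 to 3.54 and 3.78 to 4.38), kidney tubule (2.54 to 2.65 and 2.96 to 3.08) and neutrophils and macrophages (3.79 to 3.91 and 4.06 to 5.05), and the part of these lists was not tested. So were those for hepatocytes (11.85 to 12.07 and 12.37 to 12.39), whose part was not tested either. In HBx,src,p53 at 10 Gy 0 passed in limma, while 2.51% of all genes rose and 3.29% fell, and 10 had an unadjusted p below 0.05. The smallest of those belonged to cyp2aa1, with a log2 change of 1.49 (SE 0.44, adjusted p = 0.0786). There the list means without and with OF were apart for biliary epithelium (5.72 to 5.75 and 5.90 to 6.26) and for vitellogenin and female liver (12.51 to 12.53 and 4.55 to 12.36), and their part was not tested. Hepatocyte means were apart as well (11.50 to 11.66 and 11.95 to 12.33), and their part was not tested.

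Although few genes passed singly, most had positive changes with OF in each of the 4 comparisons, which share no arrays. In WT at 40 Gy 34 of the 48 changes were positive, with a median of 0.77, beside 54.9% and 0.07 over all genes. In HBx,src at 40 Gy 33 were positive (median 0.32, beside 51.9% and 0.02), in WT at 10 Gy 35 (median 0.35, beside 52.8% and 0.03) and in HBx,src,p53 at 10 Gy 34 (median 0.39, beside 50.1% and 0.00). Positive changes in all 4 were found for 20 genes, or 41.7%, beside 15.4% of all genes, and negative changes in all 4 for cyp2aa3 and cyp2x6. No share of all genes stands beside the negative ones, and both were dim. cyp2aa3 was below the array median on every array, and cyp2x6 was above it on only 8. The 20 with positive changes were cyp2aa1, cyp2aa2, cyp2aa4, cyp2aa12, cyp2ad3, cyp2ad6, cyp2k19, cyp2k21, cyp2n13, cyp2p6, cyp2p9, cyp2p10, cyp2v1, cyp2x7, cyp2x8, cyp2y3, cyp3c1, cyp4t8, cyp4v2a and cyp4v2b. The dimmer probe sets of cyp2aa1, cyp2k19, cyp2p10 and cyp2x8 were not positive in all 4. Those of cyp2aa2, cyp2aa4, cyp2aa12, cyp2p9, cyp2v1, cyp2y3, cyp4t8 and cyp4v2a were. Many of the 20 lie in the runs described above and may share probes.

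Brighter genes leaned the same way over the whole array. Over the 14371 genes with a mean above the mean array median, 70.3% of changes in WT at 40 Gy were positive, beside 34 of 42 P450 genes (81%). The like shares were 62.2% and 78.6% in HBx,src, 59% and 81% in WT at 10 Gy and 55.9% and 73.8% in HBx,src,p53, and 21.4% of such genes against 47.6% of such P450 genes were positive in all 4. Quantile normalization lowered the P450 medians to 0.67 in WT at 40 Gy, 0.28 in HBx,src, 0.25 in WT at 10 Gy and 0.32 in HBx,src,p53. Over all genes they were then 0.06, 0.01, 0.01 and -0.003. With the mean of all probe sets of a gene the P450 medians were 0.73, 0.26, 0.30 and 0.30. Centring each array on its median instead raised the median change of all genes in WT at 40 Gy to 0.22 and that of the P450 genes to 0.92. The median of the P450 genes there ran from 0.20 without WT OF + 40 Gy replicate 2, beside 0.03 over all genes, to 1.22 without WT OF + 40 Gy replicate 1, beside 0.07. It ran from 0.17 (without HBx,src OF + 40 Gy replicate 2) to 0.53 (without HBx,src OF + 40 Gy replicate 4) in HBx,src, from 0.18 (without WT OF + 10 Gy replicate 2) to 0.51 (without WT OF + 10 Gy replicate 1) in WT at 10 Gy and from 0.24 (without HBx,src,p53 10 Gy replicate 3) to 0.40 in HBx,src,p53. The mean over 18 hepatocyte markers, without and with OF, was 11.67 to 11.99 against 11.94 to 12.07 in WT at 40 Gy, 11.61 to 11.82 against 11.81 to 11.92 in HBx,src, 11.85 to 12.07 against 12.37 to 12.39 in WT at 10 Gy and 11.50 to 11.66 against 11.95 to 12.33 in HBx,src,p53, where 5 of the 18 rose. Their part in the P450 values was not tested, and in whole liver fewer hepatocytes and less RNA per hepatocyte cannot be told apart.

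**Figure D3:**
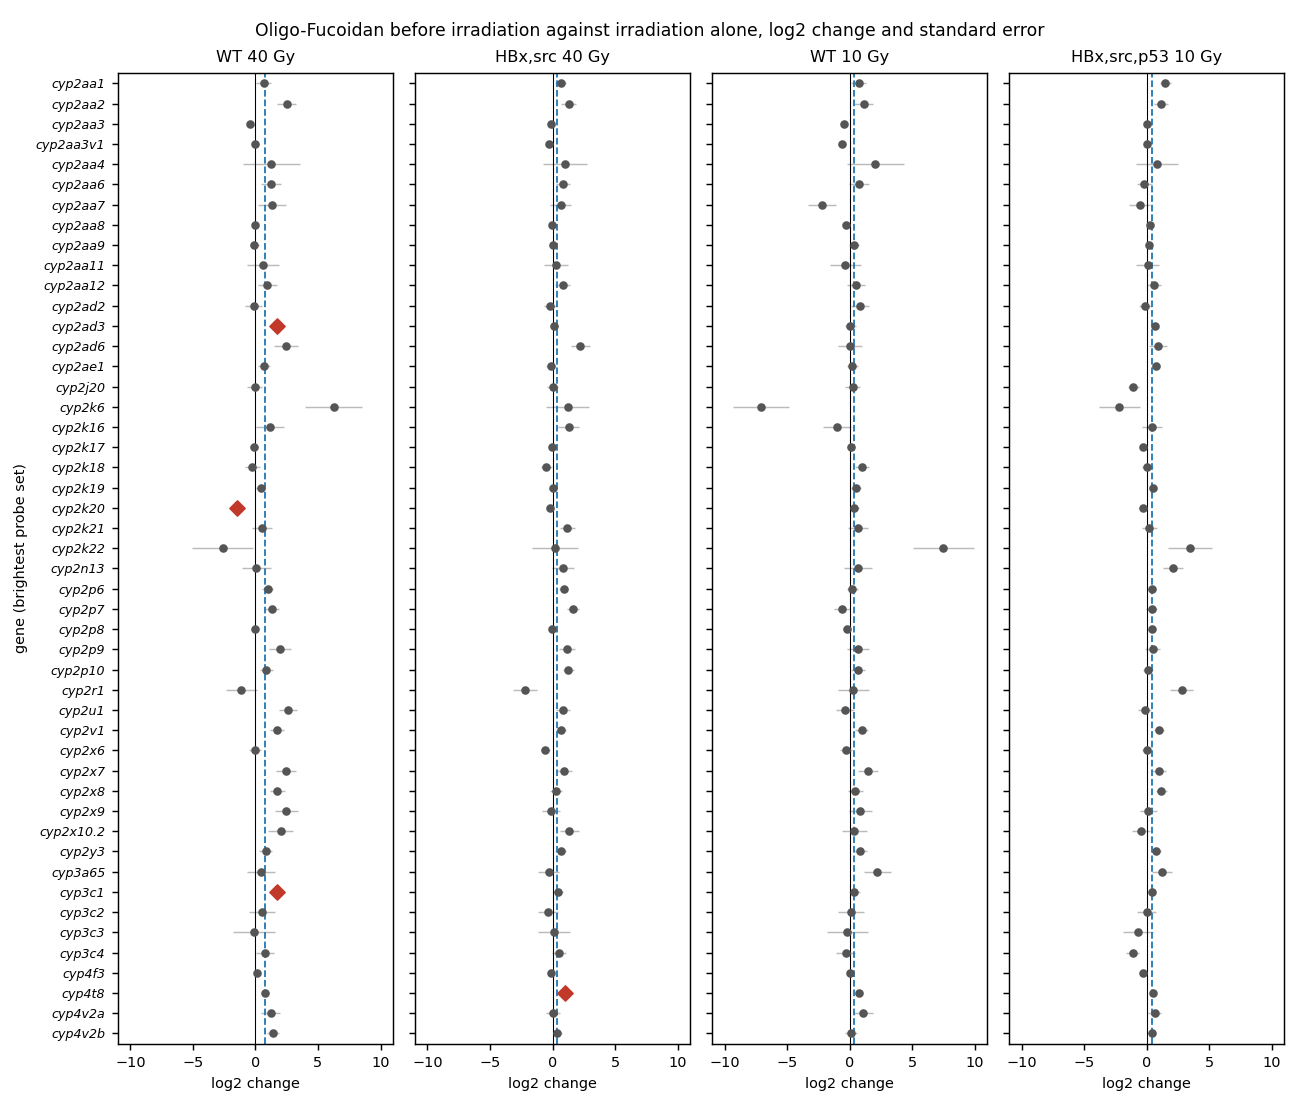
log2 change of each of the 48 P450 genes (rows) with OF before irradiation against irradiation alone, in 4 panels for the strain and dose. Points are the fitted change and grey bars its standard error, red diamonds are the 4 calls (cyp2ad3, cyp2k20 and cyp3c1 in WT at 40 Gy, cyp4t8 in HBx,src), and the dashed line is the median of the 48 genes (0.77, 0.32, 0.35 and 0.39 from left to right).

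The brightest gene of each family, and of each CYP2 subfamily with 3 or more genes, did not pass in a comparison with OF, whereas cyp3c1, the brightest CYP3C gene, did. cyp4v2b, whose human relative CYP4V2 hydroxylates fatty acids, was at 6.91 and 8.74 and 8.84 and 9.58 in WT without and with OF at 40 Gy, and at 9.35, 8.84 and 8.01 and 9.70, 9.05, 8.80 and 8.94 in HBx,src. The WT arrays did not overlap, with WT 40 Gy replicate 1 far below the rest, and the log2 change was 1.38 (SE 0.46, adjusted p = 0.119). In batch 2 it was at 10.52 and 10.31, 10.31 and 10.75, 9.98, 10.19 and 10.08 and 10.67, 10.34, 10.52, 10.36 and 10.50 in WT without and with OF and HBx,src,p53 without and with OF, where only the HBx,src,p53 groups were free of overlap, with a log2 change of 0.39 (SE 0.34, adjusted p = 0.658).

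cyp2p6, of a subfamily close to the CYP2J epoxygenases, was at 5.94 and 6.77 and 6.78 and 7.90 in WT without and with OF at 40 Gy and at 6.63, 6.90 and 5.33 and 7.13, 7.33, 7.20 and 7.05 in HBx,src. In batch 2 its values were 8.54 and 7.79 and 8.22 and 8.54 in WT and 7.49, 8.51 and 7.94 and 8.03, 8.44, 8.58, 8.66 and 8.21 in HBx,src,p53. OF arrays were above all others in both strains of batch 1, with log2 changes of 0.98 (SE 0.46, adjusted p = 0.275) and 0.89 (SE 0.35, adjusted p = 0.287), and overlapped them in both of batch 2.

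cyp2aa12, the brightest CYP2AA gene, was at 6.55 and 6.58 and 7.01 and 8.04 in WT and 7.44, 6.71 and 5.56 and 7.90, 7.54, 6.97 and 7.04 in HBx,src without and with OF at 40 Gy. At 10 Gy it was at 8.21 and 8.01 and 8.25 and 9.0 in WT and 8.07, 7.77 and 5.95 and 8.54, 6.37, 8.13, 8.71 and 7.55 in HBx,src,p53. The WT arrays with OF lay above those without at each dose, and the groups of the transgenic fish overlapped. cyp2k19, the brightest CYP2K gene, was at 7.36 and 7.67, 7.71 and 8.15, 9.07, 8.20 and 8.52 and 8.94, 8.78, 9.09 and 7.78 in WT without and with OF and HBx,src without and with OF. At 10 Gy it was at 9.09 and 9.30, 9.87 and 9.50, 8.53, 9.0 and 8.40 and 9.66, 8.90, 8.99, 9.11 and 9.21 in WT and HBx,src,p53 in the same order. WT arrays with OF were again the higher ones at each dose, by less than 1 log2 unit.

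cyp2ad2 overlapped between groups with and without OF in batch 1, at 11.44, 11.41 and 9.88 in HBx,src after 40 Gy and 11.22, 10.85, 10.07 and 10.84 after OF and 40 Gy. In batch 2 it was at 11.74 and 11.54 and 12.56 and 12.37 in WT without and with OF and at 11.57, 11.47 and 12.18 and 11.98, 11.40, 11.44, 11.80 and 11.41 in HBx,src,p53. Both WT arrays with OF at 10 Gy were above all other arrays of the batch, with a log2 change of 0.82 (SE 0.69, adjusted p = 0.649).

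The transgenic, obese fish were then set against WT under the same treatment. These comparisons use the same groups as those of OF, so they are not independent of them. At 40 Gy alone 1 P450 gene was higher in HBx,src, against 1.29% of all genes, and 1 was lower, against 1.4%. Vitellogenin and female liver genes were far higher in HBx,src at the same time (list mean 10.38 to 11.39, against 3.77 to 3.91 in WT), with 4 of 8 past the threshold, among them vtg2 with a log2 difference of 11.23 (SE 2.17, adjusted p = 0.0134). Means were also apart, in WT and HBx,src, for erythrocytes (3.76 to 3.96 and 3.04 to 3.24), exocrine pancreas (4.95 to 6.30 and 3.90 to 4.87) and neutrophils and macrophages (2.92 on both WT arrays and 3.49 to 3.64), and the part of these lists was not tested. The higher one was cyp2u1, a conserved P450 whose human relative hydroxylates long-chain fatty acids, at 2.84 and 5.72 in WT and 8.98, 8.68 and 6.82 in HBx,src. The groups did not overlap and the log2 difference was 3.88 (SE 0.67, adjusted p = 0.00622), but WT 40 Gy replicate 1 stood nearly 3 units below its partner, and without it the difference was 2.43 (adjusted p = 0.059). Fitted to the arrays of both groups alone it did not pass either (adjusted p = 0.394). After OF and 40 Gy cyp2u1 was at 6.43 and 7.32 in WT and 9.52, 8.82, 8.46 and 9.26 in HBx,src, a difference of 2.14 (SE 0.63, adjusted p = 0.147).

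The lower gene at 40 Gy alone was cyp2aa6, which was lower in the transgenic fish in 3 of the 4 comparisons. It was at 6.68 and 4.95 in WT and 3.05, 2.89 and 2.89 in HBx,src after 40 Gy, and at 7.15 and 6.95 and 4.33, 3.94, 3.69 and 3.15 after OF and 40 Gy. After 10 Gy it was at 7.41 and 6.89 in WT and 7.04, 4.10 and 3.60 in HBx,src,p53, and after OF and 10 Gy at 7.70 and 8.05 and 5.17, 4.44, 4.79, 5.19 and 4.01. The groups overlapped only after 10 Gy alone, where HBx,src,p53 replicate 1 lay within the WT range and the difference was -2.24 (SE 0.71, adjusted p = 0.0698). Elsewhere every transgenic array was below every WT array, with log2 differences of -2.87 (SE 0.71, adjusted p = 0.0464) after 40 Gy, -3.28 (SE 0.68, adjusted p = 0.0242) after OF and 40 Gy and -3.15 (SE 0.65, adjusted p = 0.0284) after OF and 10 Gy. Its size was steadier than its call: over all ways of leaving out 1 array it ran from -3.73 to -2.01 after 40 Gy, -3.46 to -3.07 after OF and 40 Gy and -3.33 to -2.98 after OF and 10 Gy, with adjusted p up to 0.31, 0.155 and 0.201. After 40 Gy the smallest size and highest p came without WT 40 Gy replicate 1, and only leaving out WT 40 Gy replicate 2 kept the call, which was also lost when the arrays of both groups were fitted alone (adjusted p = 0.252). After OF and 40 Gy the call was lost without either WT array or without HBx,src OF + 40 Gy replicate 2 or 4, and after OF and 10 Gy without either WT array or without HBx,src,p53 OF + 10 Gy replicate 2, 3 or 5.

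After OF and 40 Gy 2 genes were lower in HBx,src (1.11% of all genes) and 0 were higher (0.287% of all genes). Vitellogenin and female liver genes again had higher list means in HBx,src (10.64 to 11.96, against 5.36 to 5.60 in WT), although 0 of 8 passed. Means in WT and HBx,src were also apart for biliary epithelium (5.89 to 6.14 and 4.95 to 5.46), neutrophils and macrophages (4.40 to 5.20 and 3.80 to 4.37), intestine (2.52 to 2.84 and 2.93 to 3.25), kidney tubule (2.55 to 2.59 and 2.24 to 2.48) and hepatocytes (11.94 to 12.07 and 11.81 to 11.92), and the part of these lists was not tested. The other was cyp2x8, at 4.96 and 7.35 in WT and 1.62, 2.91, 2.90 and 2.23 in HBx,src, with a log2 difference of -3.74 (SE 0.54, adjusted p = 0.00174). The lowest WT array was still more than 2 units above the highest HBx,src array, and the call held whichever array was left out (-4.93 without WT OF + 40 Gy replicate 1 to -2.54 without WT OF + 40 Gy replicate 2, adjusted p 0.00025 to 0.0401). It was lost when the arrays of both groups were fitted alone (-3.74, adjusted p = 0.131). After 40 Gy alone cyp2x8 was at 4.78 and 4.02 in WT and 2.62, 2.53 and 1.34 in HBx,src, also without overlap, a difference of -2.23 (SE 0.57, adjusted p = 0.0531).

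**Figure D4:**
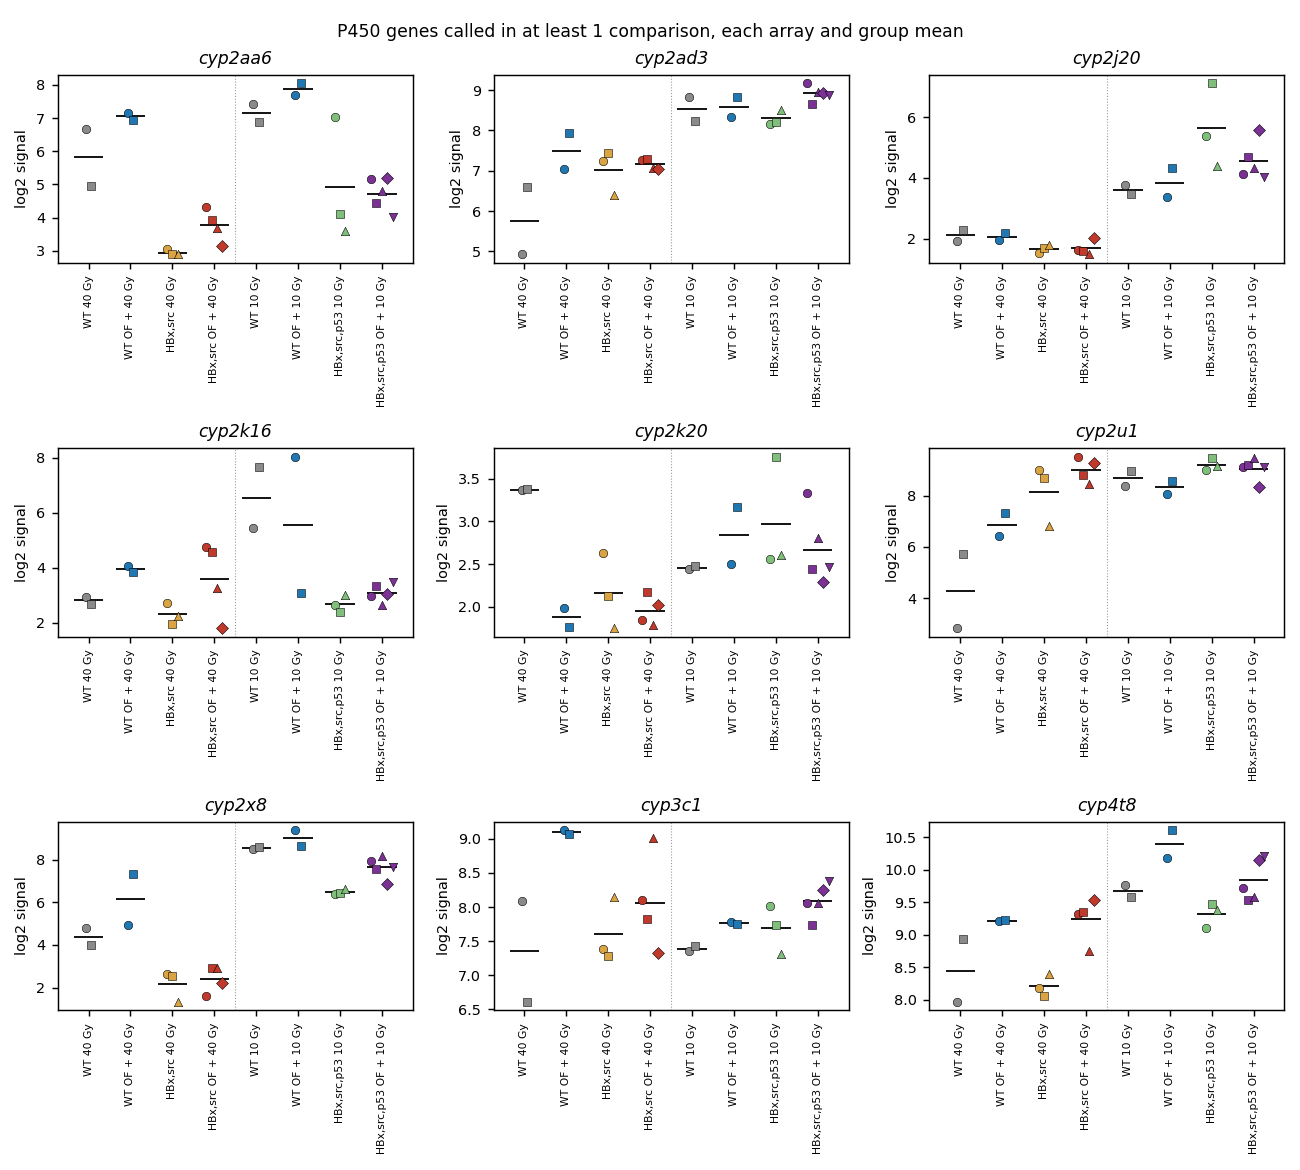
log2 signal of the 9 P450 genes called in at least 1 of the 8 comparisons of groups. Each point is 1 array, the marker shape its replicate number, black lines are group means, and the dotted line parts batch 1 (40 Gy) from batch 2 (10 Gy), which were not compared. cyp2aa6 and cyp2x8 lie lower in the transgenic groups than in WT of the same batch, except for cyp2aa6 on HBx,src,p53 10 Gy replicate 1 (7.04), which lies within the WT range.

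At 10 Gy alone 1 P450 gene was higher in HBx,src,p53 than in WT, against 5.35% of all genes, and 2 were lower, against 8.44%. cyp2j20, a zebrafish CYP2J gene, was at 3.78 and 3.45 in WT and 5.39, 7.12 and 4.39 in HBx,src,p53, a difference of 2.02 (SE 0.55, adjusted p = 0.0304). HBx,src,p53 replicate 2 stood highest, and without it the difference was 1.28 (adjusted p = 0.0998). Of the 5 arrays only HBx,src,p53 10 Gy replicate 3 could be left out with the call kept (adjusted p up to 0.19). cyp2k16 was at 5.45 and 7.65 in WT and 2.64, 2.40 and 2.99 in HBx,src,p53, a difference of -3.87 (SE 1.02, adjusted p = 0.0238), which was -2.77 (adjusted p = 0.297) without WT 10 Gy replicate 2 and also missed the threshold without HBx,src,p53 10 Gy replicate 1 or 2 (adjusted p = 0.0605 and 0.0651). cyp2x8 was at 8.53 and 8.62 in WT and 6.40, 6.46 and 6.63 in HBx,src,p53, a difference of -2.08 (SE 0.57, adjusted p = 0.032), and its size stayed between -2.15 and -2.03 whichever array was left out, though the adjusted p then rose to between 0.0618 and 0.161. Ovary markers were high on the WT arrays of this comparison (mean over 13 genes 6.25 to 6.50, against 2.17 to 2.80 in HBx,src,p53). Means in WT and HBx,src,p53 were also apart for hepatocytes (11.85 to 12.07 and 11.50 to 11.66), biliary epithelium (6.03 to 6.05 and 5.72 to 5.75), erythrocytes (3.58 to 4.10 and 4.13 to 4.57), intestine (3.35 to 3.54 and 3.55 to 3.95), neutrophils and macrophages (3.79 to 3.91 and 4.13 to 4.62) and vitellogenin and female liver (11.75 to 12.46 and 12.51 to 12.53), and the part of these lists was not tested.

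After OF and 10 Gy 1 gene, cyp2aa6, was lower in HBx,src,p53 (0.674% of all genes) and 0 were higher (0.383% of all genes). At an unadjusted p below 0.05 there were 13 with lower values, without a share of all genes at that threshold to set beside them. The 5 CYP2X genes were all on the lower side in HBx,src,p53 in both comparisons of batch 2, which share no arrays. Among P450 genes with a mean above the mean array median, 35.7% were higher in HBx,src,p53 after 10 Gy, beside 51.4% of all such genes. After OF and 10 Gy these shares were 47.6% and 47%. In batch 1, 4 of the 5 CYP2X genes were higher in HBx,src after 40 Gy (median 0.49). After OF and 40 Gy 1 of the 5 was higher (median -1.01). Of the 5, 4 lie in 1 run and may share probes. In batch 2 the median difference of the 5 was -1.67 after 10 Gy alone, from -2.08 to -1.01, and -1.73 after OF and 10 Gy, from -2.57 to -1.04. The brightest of them, cyp2x10.2, was at 9.62 and 9.50 in WT and 8.46, 8.73 and 6.23 in HBx,src,p53 after 10 Gy, and at 9.53 and 10.34 and 8.97, 6.94, 8.35, 6.23 and 6.35 after OF and 10 Gy. No HBx,src,p53 array reached a WT array of the same treatment, and the differences were -1.75 (SE 0.89, adjusted p = 0.337) and -2.57 (SE 0.82, adjusted p = 0.217). In batch 1 cyp2x10.2 was at 5.35 and 6.48 and 7.47 and 8.39 in WT without and with OF and 8.59, 7.23 and 5.45 and 8.63, 8.59, 8.09 and 8.46 in HBx,src, where the strains overlapped with and without OF. Exocrine pancreas markers, which show pancreas taken with liver, had means over 14 genes of 7.16 to 7.49 in WT and 7.44 to 9.53 in HBx,src,p53 after 10 Gy, and of 4.65 to 5.86 and 5.74 to 8.81 after OF and 10 Gy, and their part was not tested. After OF and 10 Gy the means in WT and HBx,src,p53 were apart for hepatocytes (12.37 to 12.39 and 11.95 to 12.33), erythrocytes (6.05 to 6.16 and 4.01 to 5.45), kidney tubule (2.96 to 3.08 and 2.68 to 2.89) and vitellogenin and female liver (3.12 to 4.14 and 4.55 to 12.36), whose part was not tested either.

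Leaving out replicates 1 and 4 of HBx,src,p53 after OF and 10 Gy, the arrays with low vitellogenin, was tried after the values were seen. It left the count of calls with OF in HBx,src,p53 at 0 and that against WT after 10 Gy alone at 3, and raised that against WT after OF and 10 Gy from 1 to 4 (cyp2aa6, cyp2k6, cyp2k22 and cyp2x7). The arrays left out are the same 2 of that group that had low cyp2k6 and high cyp2k22, so the calls of this pair follow from the choice of arrays and are given without a test.

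Whether OF acted differently in the strains was tested as an interaction within each batch. For none of the 48 genes did the change with OF in HBx,src differ from that in WT at 40 Gy in limma (0.225% of all genes did), and 4 had an unadjusted p below 0.05, namely cyp2ad3, cyp2k20, cyp2x9 and cyp3c1. At 10 Gy none differed between HBx,src,p53 and WT in limma (6.8% of all genes did), and 0 had an unadjusted p below 0.05. Without the 2 arrays with low vitellogenin the interaction at 10 Gy was called for cyp2k6 and cyp2k22, which again follows from the choice of arrays. In all, 9 of the 48 genes were called in at least 1 comparison of groups, 4 with OF and 5 between strains, and 39 in none. No share of all genes stands beside these pooled counts, so they do not set the P450 genes apart. Of their 12 calls 8 were lost when the arrays of both groups were fitted alone, and the 4 that held were cyp2aa6 after OF at each dose and cyp2k16 and cyp2x8 after 10 Gy alone.

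The change of cyp2r1 with OF took opposite signs in the 2 transgenic lines, which also differ in batch and dose. In WT the log2 changes were -1.13 at 40 Gy and 0.30 at 10 Gy, with the same signs by batch. Line, batch and dose therefore cannot be told apart for cyp2r1. This gene, whose human relative performs the hepatic step of vitamin D activation, was at 4.80, 5.61 and 5.48 in HBx,src after 40 Gy and 2.26, 2.44, 2.58 and 5.03 after OF and 40 Gy, where the last array alone lay within the range without OF. In HBx,src,p53 it was at 3.92, 1.56 and 3.40 without and 6.33, 3.51, 4.75, 6.34 and 7.81 with OF, and the log2 changes were -2.22 (SE 0.95, adjusted p = 0.341) and 2.79 (SE 0.91, adjusted p = 0.113). The other probe sets of the 17 genes that have several did not all follow the brightest. Over the 23 arrays their correlation with it was above 0.9 for cyp2aa4, cyp2aa12, cyp2x8, 1 of the 3 of cyp2x10.2, cyp2y3, cyp3a65 and cyp4v2a, but 0.23 for cyp4t8, -0.19 for cyp2aa1 and -0.23 for cyp2k17. cyp2k6, cyp2k22, cyp2aa6 and cyp2u1 had 1 probe set each.

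Genes that regulate or serve P450 enzymes were read from 3 lists, whose counts stand beside the shares of all genes given above for each comparison. For these genes too, the part of the oocyte signal of both WT arrays after 10 Gy alone was not tested. Of 33 receptors and transcription factors of P450 genes, 5 rose with OF in WT at 40 Gy, 2 in HBx,src, 3 in WT at 10 Gy and 6 in HBx,src,p53, where 1 fell, and the medians were 0.52, 0.57, 0.50 and 0.36. hnf4a, the nuclear receptor that maintains hepatocyte expression of many P450 genes, was at 6.44 and 7.21 and 8.13 and 8.30 in WT without and with OF at 40 Gy, and at 7.91, 7.10 and 7.69 and 9.17, 8.54, 8.75 and 8.78 in HBx,src. At 10 Gy it was at 8.86 and 8.22 and 9.45 and 9.71 in WT and at 8.10, 8.51 and 8.73 and 9.99, 9.45, 9.52, 9.95 and 9.32 in HBx,src,p53. Every array with OF was above every array without it in all 4 comparisons. It rose by 1.39 (SE 0.33, adjusted p = 0.0297) in WT at 40 Gy, 1.24 (SE 0.25, adjusted p = 0.0184) in HBx,src and 1.2 (SE 0.24, adjusted p = 0.00987) in HBx,src,p53, and its change in WT at 10 Gy was 1.04 (SE 0.33, adjusted p = 0.0846). The call in WT at 40 Gy was lost without WT 40 Gy replicate 1 (adjusted p = 0.194) or either OF array (0.0646 and 0.222), that in HBx,src without HBx,src 40 Gy replicate 2 (0.0929) or HBx,src OF + 40 Gy replicate 1 (0.0544), and that in HBx,src,p53 without HBx,src,p53 10 Gy replicate 1 (0.0691), with changes of at least 1.00. Without the 2 arrays with low vitellogenin the change in HBx,src,p53 was 0.99 (adjusted p = 0.0737).

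nr1i2 encodes the pregnane X receptor, which controls CYP3A genes. It rose in HBx,src,p53 from 7.00, 8.10 and 7.86 to 9.29, 8.69, 9.50, 9.83 and 9.16, without overlap, by 1.64 (SE 0.36, adjusted p = 0.0177), or 1.32 (adjusted p = 0.117) without HBx,src,p53 10 Gy replicate 1 and 1.75 (adjusted p = 0.0504) without replicate 3 of that group. The call was also lost without the 2 arrays with low vitellogenin (1.46, adjusted p = 0.0976). In HBx,src nr1i2 was at 7.30, 6.06 and 6.04 and 8.13, 8.24, 7.23 and 7.95, a change of 1.42 (SE 0.38, adjusted p = 0.0759), and in WT the changes were 0.38 (SE 0.50, adjusted p = 0.755) at 40 Gy and 0.55 (SE 0.50, adjusted p = 0.686) at 10 Gy. cyp3a65 passed in none of the 4.

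Of the other regulators, the 4 called ones with the smallest p are described here. nr1h4, the bile acid receptor FXR, rose in HBx,src from 7.11, 5.91 and 6.84 to 8.17, 8.13, 7.88 and 8.16, by 1.46 (SE 0.25, adjusted p = 0.00766), and held whichever array was left out but not with the arrays of both groups fitted alone (adjusted p = 0.117). nr5a2 rose in WT at both doses, from 6.03 and 7.31 to 8.21 and 8.29 at 40 Gy and from 7.05 and 7.18 to 8.03 and 8.34 at 10 Gy, by 1.58 (SE 0.28, adjusted p = 0.0061) and 1.07 (SE 0.28, adjusted p = 0.0289). The first was lost without WT OF + 40 Gy replicate 2 (adjusted p = 0.0664) and the other whichever of its arrays was left out (0.0632 to 0.212). The glucocorticoid receptor gene nr3c1 rose in WT at 40 Gy from 4.25 and 4.17 to 5.39 and 6.25, by 1.61 (SE 0.29, adjusted p = 0.00773), or 1.18 (adjusted p = 0.138) without WT OF + 40 Gy replicate 2. The coactivator gene ppargc1a rose in HBx,src,p53 from 4.34, 4.08 and 5.15 to 7.23, 6.49, 7.60, 8.22 and 8.76, by 3.14 (SE 0.60, adjusted p = 0.0078), and held whichever array was left out.

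**Figure D5:**
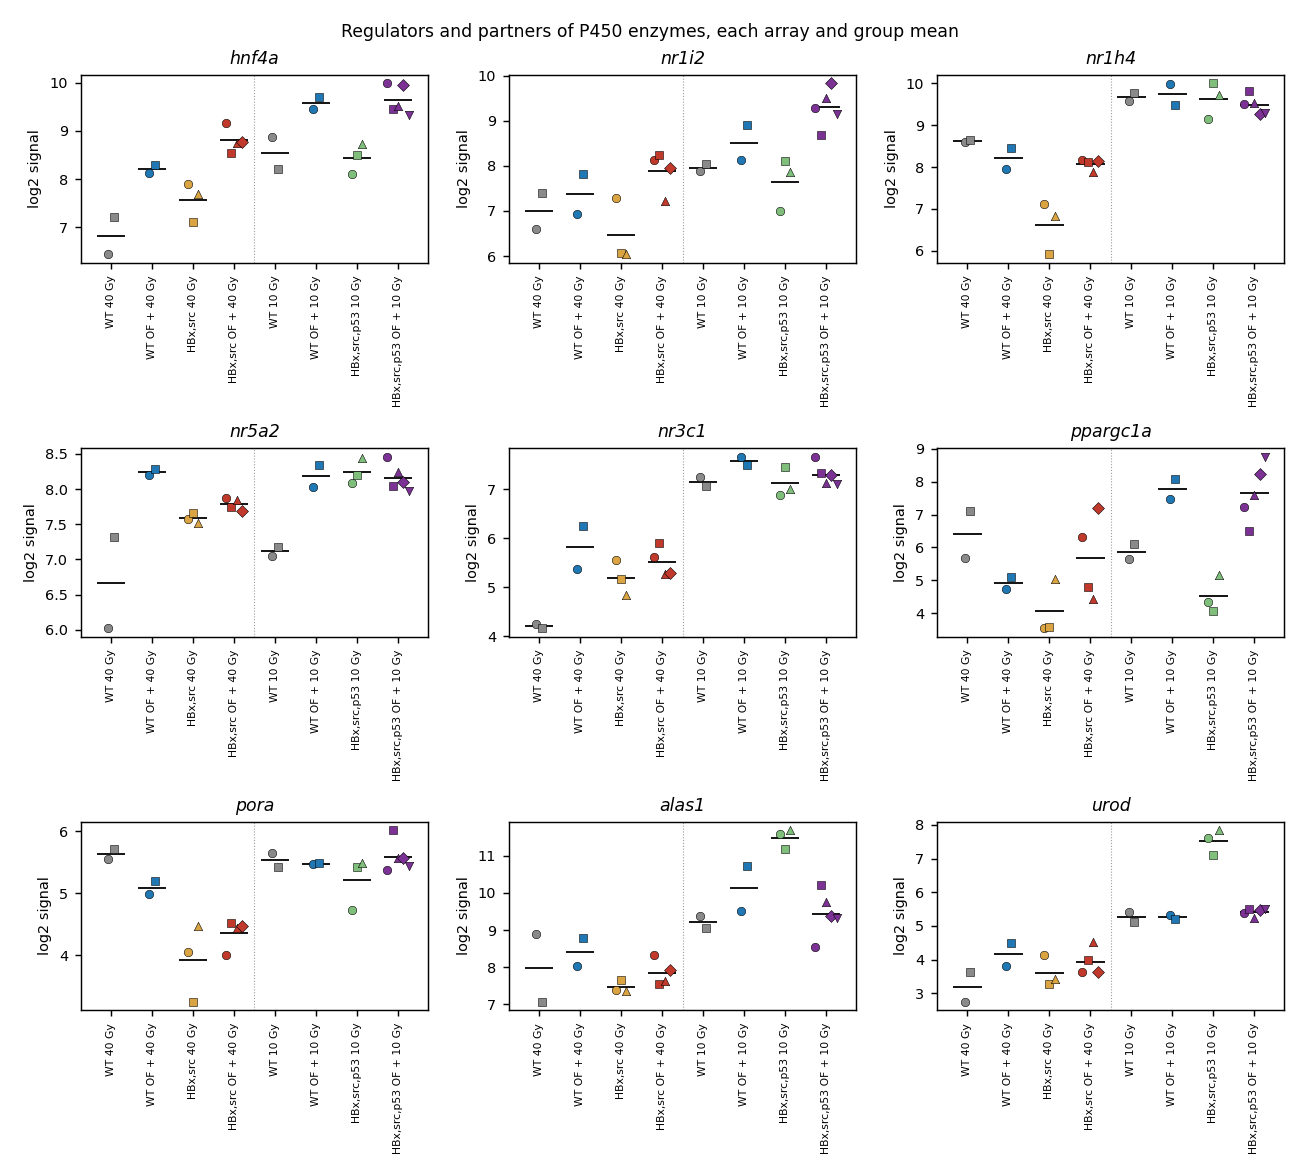
log2 signal of 9 genes that regulate P450 genes (hnf4a, nr1i2, nr1h4, nr5a2, nr3c1, ppargc1a) or serve the enzymes (pora, alas1, urod). Each point is 1 array, black lines are group means and the dotted line parts the batches. hnf4a is higher with OF in all 4 comparisons without overlap, and within batch 2 urod and alas1 are highest in HBx,src,p53 after 10 Gy alone.

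Among 23 electron donors and haem genes, 1 rose with OF in WT at 40 Gy, 0 changed in HBx,src, 3 rose in WT at 10 Gy, and 1 rose and 3 fell in HBx,src,p53. Of the genes of P450 reductase itself, porb rose in WT at 10 Gy from 9.67 and 9.56 to 11.05 and 11.18, by 1.50 (SE 0.33, adjusted p = 0.00835), a call that was lost without WT 10 Gy replicate 2 (adjusted p = 0.0642) or WT OF + 10 Gy replicate 2 (0.0678). Its changes in WT at 40 Gy, HBx,src and HBx,src,p53 did not pass (-0.13, 0.66 and 0.66). pora did not pass in any of the 4, with changes of -0.55 (SE 0.32, adjusted p = 0.397), 0.43 (SE 0.25, adjusted p = 0.529), -0.06 (SE 0.32, adjusted p = 0.969) and 0.38 (SE 0.23, adjusted p = 0.488) in WT at 40 Gy, HBx,src, WT at 10 Gy and HBx,src,p53. It was lower in HBx,src than in WT at 40 Gy alone, at 4.05, 3.25 and 4.46 against 5.56 and 5.71, a log2 difference of -1.71 (SE 0.29, adjusted p = 0.00622). The genes that fell in HBx,src,p53 included alas1, the rate-setting enzyme of haem synthesis in liver, from 11.58, 11.17 and 11.69 to 8.54, 10.22, 9.74, 9.39 and 9.34, a log2 change of -2.04 (SE 0.39, adjusted p = 0.00807). urod, a later enzyme of that pathway, went from 7.62, 7.11 and 7.84 to 5.39, 5.50, 5.23, 5.47 and 5.50, a log2 change of -2.10 (SE 0.26, adjusted p = 0.000287). Neither pair of groups overlapped, and urod was at 5.40 and 5.11 and 5.31 and 5.22 in WT without and with OF, close to HBx,src,p53 with OF. Without the 2 arrays with low vitellogenin alas1 had a log2 change of -1.72 (adjusted p = 0.0513) and urod of -2.11 (adjusted p = 0.00313).

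Both WT arrays after 10 Gy alone had high oocyte transcripts. Leaving out 1 array cannot remove that signal, and its part in the changes at 10 Gy was not tested. cyb5b, a cytochrome b5 of the mitochondrial outer membrane, moved in opposite directions at 10 Gy. It rose in WT from 4.59 and 4.44 to 6.84 and 7.56, by 2.68 (SE 0.71, adjusted p = 0.0331), and fell in HBx,src,p53 from 9.39, 9.21 and 9.58 to 7.78, 5.50, 6.03, 7.03 and 6.80, a log2 change of -2.76 (SE 0.52, adjusted p = 0.00685). The call in WT was lost whichever of its arrays was left out (adjusted p 0.0767 to 0.22), while the difference between the strains, the interaction, was -5.45 (SE 0.88, adjusted p = 0.000759) and held whichever array was left out. cyb5r1, a cytochrome b5 reductase, rose in WT at 40 Gy from 2.47 and 3.29 to 4.63 and 5.14, by 2.01 (SE 0.41, adjusted p = 0.0147), or 1.59 (adjusted p = 0.0931) without WT 40 Gy replicate 1 and 1.75 (adjusted p = 0.163) without WT OF + 40 Gy replicate 2.

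Of 29 epoxide hydrolase and eicosanoid genes, which act on the products of P450 epoxygenases or beside them, 1 rose with OF in WT at 40 Gy, 0 changed in HBx,src, 1 fell in WT at 10 Gy, and 1 rose and 2 fell in HBx,src,p53. ephx2, the soluble epoxide hydrolase that opens fatty acid epoxides, rose in HBx,src,p53 from 7.43, 7.69 and 7.26 to 9.18, 8.11, 8.77, 8.96 and 8.37, by 1.22 (SE 0.26, adjusted p = 0.014), or 1.12 (adjusted p = 0.074) without HBx,src,p53 10 Gy replicate 3 and 1.2 (adjusted p = 0.0594) without replicate 1 of that group. Its call in HBx,src,p53 was also lost without the 2 arrays with low vitellogenin (0.96, adjusted p = 0.0945). ptges3a and ptges3b, which encode forms of the co-chaperone p23, fell there from 7.73, 7.19 and 7.78 to 6.48, 6.19, 6.20, 5.92 and 6.30 and from 8.11, 7.47 and 8.59 to 6.28, 5.19, 5.27, 5.90 and 6.35, with log2 changes of -1.35 (SE 0.23, adjusted p = 0.00361) and -2.26 (SE 0.38, adjusted p = 0.00355), and held whichever array was left out. ptgr1.1, a prostaglandin reductase gene whose signal was at most 3.08, fell in WT at 10 Gy with a log2 change of -0.78 (SE 0.19, adjusted p = 0.0184) and lost the call whichever of its arrays was left out (adjusted p 0.0612 to 0.126).

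Over these 3 lists 9 of the 23 calls of named genes, with OF or as an interaction, were lost when the arrays of the groups compared were fitted alone, among them those of hnf4a, nr5a2, nr3c1 and cyb5r1 in WT at 40 Gy (adjusted p = 0.422, 0.464, 0.419 and 0.413), hnf4a in HBx,src (0.111), ephx2 in HBx,src,p53 (0.0543), and nr5a2 and ptgr1.1 in WT at 10 Gy (0.113 and 0.152).

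The 37 P450 genes of other families were counted beside these. With OF 1 rose in WT at 40 Gy, 0 changed in HBx,src, 2 rose and 3 fell in WT at 10 Gy, and 3 rose in HBx,src,p53. In WT at 10 Gy cyp11a1.1, cyp17a1 and cyp26a1 fell (log2 changes -4.477, -3.114 and -0.998), and cyp7a1 and cyp8b1.2 rose (3.455 and 1.476). The part of the oocyte signal of the WT arrays after 10 Gy alone in these changes was not tested. The median changes of the 37 genes were 0.08, 0.12, 0.09 and 0.17, below those of families 2, 3 and 4 in each comparison. This difference was not tested, and the genes were not matched for brightness, although brighter genes leaned positive over the whole array.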

How the data were processed

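RNA of zebrafish liver was measured on 23 Affymetrix ZebGene ST arrays, 11 in batch 1 and 12 in batch 2. The deposited values are log2 signals per probe set, which the authors made in the Transcriptome Analysis Console, with a version and a summarisation method that the sources used here do not give. No further normalization was applied, and 0 columns of values were left unused. Of 75212 probe sets, 30358 carried 1 gene symbol, 1015 several and 43839 none. Genes were named only from probe sets with 1 symbol, which left out 2 probe sets that name a P450 gene of these families beside another symbol. The number of arrays, 2 to 5 in a group, limits the precision.

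One linear model over the 8 groups was fitted to all probe sets with limma 3.58.1 in R 4.3.3 (lmFit, contrasts.fit and eBayes, 15 residual degrees of freedom), and p-values were adjusted by Benjamini-Hochberg over all probe sets at 0.05. Every adjusted p given is limma's. Each gene was read from its brightest probe set. Tables were summarised in Python 3.11.15 with pandas 2.3.3 and numpy 2.4.6. The fit was tested on simulated data, where 51.5% of 200 probe sets changed by 2 log2 units were recovered for OF in WT at 40 Gy among 75212, and 78.5% for OF in HBx,src,p53.

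All 48 P450 genes were counted. Values on each array are given for the brightest gene of each family and of each CYP2 subfamily with 3 or more genes, for every gene called in a comparison, for up to 4 genes of each list by smallest p, and for hnf4a, nr1i2 and pora. cyp2k6, cyp2k22, cyp2r1, cyp2aa1 and porb were named after their values were seen, and so were the directions of the CYP2X and CYP3C subfamilies. The P450 genes, the gene lists and the rules were chosen with earlier results of these data known. The alternatives were a fit to the compared groups alone, the replicate number as a block, centring or quantile normalization, the dimmer 50% of probe sets dropped, the mean of all probe sets of a gene, the study's thresholds (a fold change of 2 with an unadjusted p), and leaving out each array in turn.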

Additional observations from a re-analysis of the deposited data

Results flagged for a closer look

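In groups of 4 or 5 arrays, 102 sets of values were searched for a single array far from the others, and 3 were found, where chance alone gives about 5%. cyp2r1 was at 5.031 on HBx,src OF + 40 Gy replicate 4 against 2.258 to 2.581 on the other 3 arrays. nr1h4 was at 7.884 on replicate 3 of that group against 8.128 to 8.165, and pora was at 4.005 on replicate 1 against 4.432 to 4.514.

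The change with OF differed between HBx,src,p53 and WT at 10 Gy by a tested interaction in limma for 4 of the genes named from the lists. Both WT arrays after 10 Gy alone had high oocyte transcripts, whose part in this was not tested. The difference in log2 change, HBx,src,p53 minus WT, was -5.448 for cyb5b (adjusted p = 0.000759), -2.948 for alas1 (0.0144), -2.113 for urod (0.00727) and -1.998 for ptges3a (0.00435). That of alas1 was lost without WT 10 Gy replicate 2 (adjusted p = 0.0723) or WT OF + 10 Gy replicate 2 (0.121).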

How the results depend on the processing

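Counts of called P450 genes are given in the order OF in WT at 40 Gy, in HBx,src, in WT at 10 Gy and in HBx,src,p53, then HBx,src minus WT after 40 Gy and after OF and 40 Gy, then HBx,src,p53 minus WT after 10 Gy and after OF and 10 Gy. They were 3, 1, 0, 0, 2, 2, 3 and 1 as reported. The study's thresholds, with unadjusted p, gave 13, 6, 2, 6, 12, 8, 9 and 14, and 4 for the interaction at 40 Gy in place of 0. For these thresholds and the settings below no share of all genes stands beside the counts, so they do not set the P450 genes apart. Fitted to the compared groups alone the counts were 0, 0, 2, 1, 0, 1, 2 and 1. With the replicate block they were 1, 0, 1, 0, 1, 1, 1 and 0. Centring each array gave 3, 1, 0, 0, 1, 2, 3 and 1, quantile normalization 1, 0, 0, 0, 5, 2, 3 and 1, dropping the dimmer probe sets 3, 1, 0, 1, 3, 2, 4 and 1, and the mean of all probe sets 5, 1, 2, 0, 4, 2, 5 and 1. In HBx,src minus WT after 40 Gy, 1 gene was higher and 1 lower as reported, 1 and 0 after centring and 2 and 3 after quantile normalization. Leaving out 1 array gave 0 to 7, 0 to 1, 0 to 1, 0 to 1, 0 to 5, 1 to 3, 0 to 3 and 0 to 1, and 0 to 1 for the interaction at 40 Gy. For HBx,src minus WT after 40 Gy the 0 came without WT 40 Gy replicate 1 and the 5 without WT 40 Gy replicate 2. Without replicates 1 and 4 of HBx,src,p53 after OF and 10 Gy, whose vitellogenin was low, a choice made after seeing the data, there were 4 for HBx,src,p53 minus WT after OF and 10 Gy and 2 for the interaction at 10 Gy, where all other settings gave 0; both of those, cyp2k6 and cyp2k22, and 2 of the 4 follow from the choice of arrays. Of the 12 calls of single P450 genes, 8 were lost in the groups alone, 8 with the replicate block, 2 after centring and 3 after quantile normalization. Of 23 calls of named list genes these numbers were 9, 15, 0 and 3, and without the arrays of low vitellogenin 4 of 13 were lost. With the block nr1h4 in HBx,src had an adjusted p of 0.0958 and ppargc1a in HBx,src,p53 one of 0.0703. No called gene named in the text changed sign under any of these settings.

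Deviations of same-numbered arrays correlated at 0.28 in WT at 40 Gy, 0.0846 to 0.249 in HBx,src, -0.011 in WT at 10 Gy and -0.028 to 0.059 in HBx,src,p53. In WT both replicates give the same value, because the deviations of 2 arrays in a group mirror each other. Whether replicate numbers pair the arrays cannot be decided from these values, because they were not set against those of differently numbered arrays. Most calls rest on 2 WT arrays, and the cause of the changes between settings was not tested.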
